A study of Mus musculus with 6 samples.

Results

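The secreted antagonists and modulators of Wnt signalling were followed in mouse growth plate cartilage as 10 named genes: Sfrp1, Sfrp2, Sfrp4, Sfrp5, Frzb, Wif1, Dkk1, Dkk2, Dkk3 and Sost. They were taken by name, each through the probe set that is annotated to that gene alone, and are 10 of 19938 genes with such a probe set and of 17020 genes tested. The list was chosen with earlier results of these data known. Total RNA came from chondrocytes of the growth plate, the cartilage in which long bones lengthen, of femurs and tibiae. Samples from conditional Lkb1 mutant mice, 3 in all, were set against 3 samples from control mice, all at postnatal day 30 and all on a background given as mixed FVB, 129S6 and C57CL/6. Lkb1 is the older name of Stk11, a kinase that activates AMPK and related kinases. The Cre driver, the cells in which it acts and the genotype of the controls are not given in the sources used here. Each sample was hybridised to 1 Affymetrix array. The labels call the replicates biological without saying that they came from separate animals, so a p-value here reflects the variation among these samples, which may be technical in part.

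Wnt proteins are secreted ligands that bind Frizzled receptors together with the co-receptors LRP5 and LRP6, which stabilises beta-catenin and switches on target genes through TCF/LEF factors. Secreted antagonists act outside the cell in different ways. Proteins of the Sfrp family, which includes Frzb, and Wif1 bind the Wnt ligands themselves, whereas Dkk1, Dkk2 and the Sost product sclerostin bind the co-receptors. In the growth plate, Wnt signalling takes part in the maturation of chondrocytes and in the formation of the perichondrium and of bone around the cartilage.

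Of the 10 genes, 5 rose in the Lkb1 mutant growth plates and 0 fell. Sfrp2 rose 7.46-fold, Dkk3 3.08-fold, Frzb 2.48-fold, Sfrp1 2.35-fold and Sfrp4 2.33-fold, so that 4 of the 5 belong to the Sfrp family of ligand-binding proteins. That family supplies much of the list, with Sfrp1, Sfrp2, Sfrp4, Sfrp5 and Frzb among the 10 genes. Sfrp5, Wif1 and Dkk1 did not pass the test, and Dkk2 and Sost lay below background in every mutant and every control array. The share of 5 in 10 stands beside 14.7% of all genes tested that passed an adjusted p of 0.05 in limma, with 7.84% higher and 6.82% lower in the mutants. That balance turned under median centring of the arrays, with 1117 genes higher and 1284 lower, against 1335 higher and 1161 lower without it. The median difference of the 10 genes was 0.77 on the log2 scale, beside 0.03 for all genes tested. No gene lay near that median. The 5 that rose differed by 1.22 to 2.90, and the rest by -0.01 (Dkk1) to 0.32 (Wif1). For 5 of the 10 genes no mutant array overlapped a control array, as for 36.7% of all genes tested. All 10 passed the filter on low values.

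Levels are given as log2(intensity + 1), with mutant replicates 1, 2 and 3 before control replicates 1, 2 and 3, and differences are mutant minus control on that scale, which understates the change of a dim gene slightly. Background was taken on each array as the level that 95% of the probe sets of olfactory receptor genes did not exceed, and this limit lay between 6.40 and 6.73. Stk11 (probe set 10364683) had levels of 7.39, 7.51 and 7.52 in the mutants, against 8.68, 9.08 and 9.67 in the controls. Every mutant array was lower than every control, and the difference was -1.67 (SE 0.22, n = 3 per group, limma adjusted p = 0.00387). Where its probes lie relative to the mutated region was not analysed here. Its control levels rose from replicate 1 to replicate 3, the order of the marrow markers described below. The part of marrow cells in the Stk11 difference was not tested. Median intensities ran from 82.4 to 90.5 over the arrays, and the precision of each value is limited by the number of arrays.

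**Figure D1:**
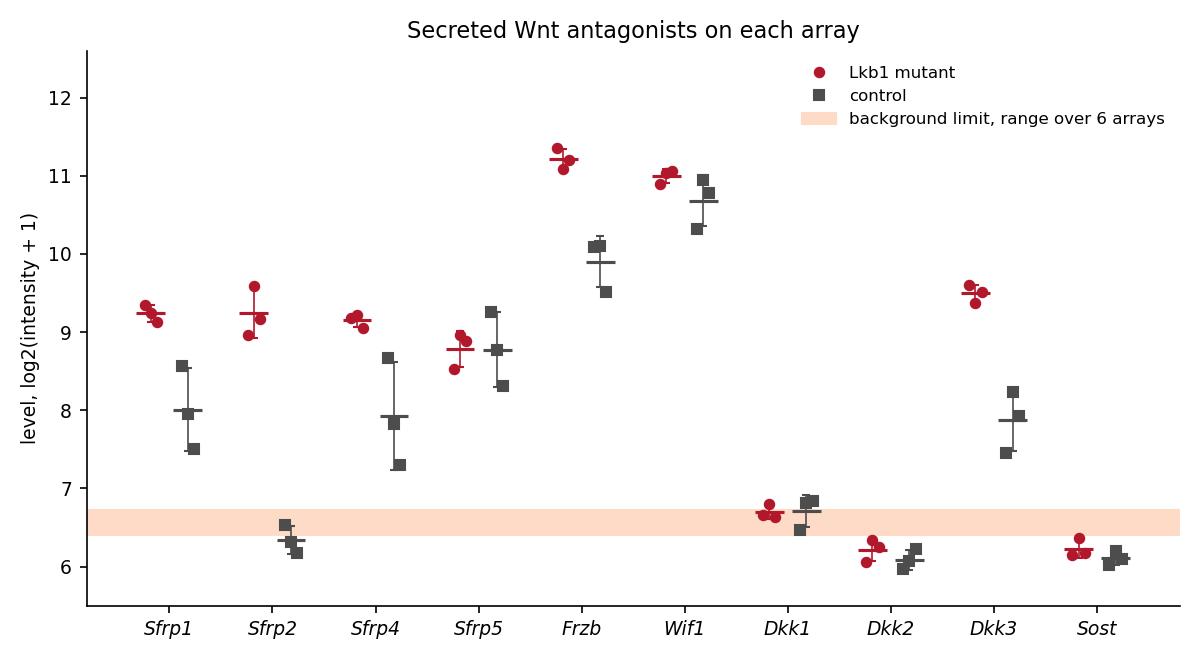
Level of each secreted Wnt antagonist on each array as log2(intensity + 1), with Lkb1 mutant arrays as red circles and control arrays as grey squares; horizontal bars are means, error bars 1 SD (n = 3 per group) and the band is the range of the background limit over the 6 arrays. Sfrp1, Sfrp2, Sfrp4, Frzb and Dkk3 had all mutant points above all control points, and Dkk2 and Sost lay below the band.

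Promoter sequences, from 250 bases before to 50 after the start site, were found for 7 of the 10 genes in RefSeq (GRCm38.p6), namely Sfrp2, Sfrp5, Frzb, Wif1, Dkk1, Dkk2 and Sost. Those of Sfrp2 (chr3:83766071-83766370, plus strand) and Frzb (chr2:80447347-80447646, minus strand) are shown because both genes rose, and that of Dkk1 (chr19:30549447-30549746, minus strand) because it holds the most TCF/LEF letters of the 7 while the level of Dkk1 did not pass the test. They read 5′ to 3′ on the strand of the gene, and capitals mark the TCF/LEF matches CTTTGA or CTTTGT on either strand.

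Sfrp2: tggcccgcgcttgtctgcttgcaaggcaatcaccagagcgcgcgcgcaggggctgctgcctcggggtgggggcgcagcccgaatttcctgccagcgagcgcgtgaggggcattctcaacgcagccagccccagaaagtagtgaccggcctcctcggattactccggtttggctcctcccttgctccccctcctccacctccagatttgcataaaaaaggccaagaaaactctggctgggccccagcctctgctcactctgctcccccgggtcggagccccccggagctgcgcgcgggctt
Frzb: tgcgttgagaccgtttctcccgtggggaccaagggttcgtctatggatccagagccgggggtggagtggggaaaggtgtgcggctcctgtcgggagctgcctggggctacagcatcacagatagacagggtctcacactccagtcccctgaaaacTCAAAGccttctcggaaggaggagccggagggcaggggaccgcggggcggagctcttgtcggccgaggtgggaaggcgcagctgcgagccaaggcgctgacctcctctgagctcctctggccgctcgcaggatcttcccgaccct
Dkk1: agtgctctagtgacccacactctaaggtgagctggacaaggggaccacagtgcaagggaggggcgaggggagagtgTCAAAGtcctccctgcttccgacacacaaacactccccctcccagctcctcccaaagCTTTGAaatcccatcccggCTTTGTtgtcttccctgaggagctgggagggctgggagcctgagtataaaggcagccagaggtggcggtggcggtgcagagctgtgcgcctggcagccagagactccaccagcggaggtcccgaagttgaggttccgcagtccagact

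The Dkk1 window held 3 TCF/LEF matches, at -174, -117 and -98 from the start site, and a TATAAA at -54. The Frzb window held 1 TCF/LEF match, at -95, and a GGGCGG at -51, and the Sfrp2 window held 0 of these motifs with a GC content of 66.0% and 22 CpG. Over the 7 windows, 3 held a TCF/LEF match, 3 a TATAAA and 4 a GGGCGG, searched on both strands with no overlap between the motifs found. Of all 32851 RefSeq promoters in the table, 31.2% held a TCF/LEF match, 13.6% a TATAAA and 35.7% a GGGCGG. A match describes letters in the window and is not a binding site.

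Among the proteins that bind Wnt ligands, Sfrp2 (probe set 10492798) differed most. Sfrp2 encodes a secreted protein with a Frizzled-like cysteine-rich domain through which it binds Wnts. Its levels were 8.97, 9.59 and 9.17 in the mutants, against 6.54, 6.31 and 6.18 in the controls. The mutant arrays were all well above background, while only control replicate 1 exceeded its own array's limit, and the groups lay far apart. Mutants averaged 9.24 ± 0.32 and controls 6.34 ± 0.18 (SD, n = 3 each), a difference of 2.90 (SE 0.17, 95% interval 2.50 to 3.30, limma adjusted p = 0.000258). This was the 8th largest rise among the 17020 genes tested. With 2 of 3 controls at background, the 7.46-fold change rests on the dim side on a signal that the array barely measured.

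Frzb (probe set 10484307), also called Sfrp3, was first found as an abundant secreted protein of cartilage. Its levels were 11.35, 11.09 and 11.20 in the mutants, against 10.09, 10.10 and 9.52 in the controls. All mutant arrays lay above all control arrays, and both groups were far above background. The means were 11.21 ± 0.13 in mutants and 9.90 ± 0.33 in controls (SD, n = 3 each), which differed by 1.31 (SE 0.17, 95% interval 0.92 to 1.71, limma adjusted p = 0.00333).

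Sfrp1 (probe set 10570957), another member of the family, had levels of 9.35, 9.24 and 9.12 in the mutants, against 8.56, 7.95 and 7.51 in the controls. The mutant arrays lay close together above all controls, which spread over about 1 log2 unit. Mutants averaged 9.24 ± 0.11 and controls 8.01 ± 0.53 (SD, n = 3 each), a difference of 1.23 (SE 0.24, 95% interval 0.67 to 1.79, limma adjusted p = 0.0155). Leaving out mutant replicate 1, 2 or 3 or control replicate 2 ended the call, with limma adjusted p of 0.0642, 0.0575, 0.0538 and 0.0607.

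Sfrp4 (probe set 10403834), whose product also binds Wnts and whose loss in mice thins cortical bone, had levels of 9.19, 9.22 and 9.05 in the mutants, against 8.67, 7.82 and 7.30 in the controls. The order of the controls was that seen for Sfrp1, with control replicate 1 highest and control replicate 3 lowest. Mutants averaged 9.15 ± 0.09 and controls 7.93 ± 0.69 (SD, n = 3 each), a difference of 1.22 (SE 0.30, 95% interval 0.51 to 1.93, limma adjusted p = 0.036). The call ended without mutant replicate 1, 2 or 3 or control replicate 2, with limma adjusted p of 0.112, 0.113, 0.102 and 0.114. Without any 1 of these 4 arrays, 3 of the 10 genes passed in place of 5, and the 3 were Sfrp2, Frzb and Dkk3.

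Sfrp5 (probe set 10467744), the remaining member of the family, had levels of 8.53, 8.96 and 8.89 in the mutants, against 9.26, 8.77 and 8.31 in the controls. The groups overlapped, and both the highest and the lowest array were controls. Mutants averaged 8.79 ± 0.23 and controls 8.78 ± 0.48 (SD, n = 3 each). The difference of 0.01 had a 95% interval of -0.53 to 0.56 (limma adjusted p = 0.980), which still allows a change of about 0.5 log2 units either way. Wif1 (probe set 10366653), a secreted protein that binds Wnts through a WIF domain and not a Frizzled-like one, had levels of 10.89, 11.03 and 11.07 in the mutants, against 10.31, 10.94 and 10.78 in the controls. It was bright on every array, and mutant replicate 1 lay below control replicate 2. Its difference of 0.32 (95% interval -0.06 to 0.70) did not pass the test (limma adjusted p = 0.243).

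Dkk3 (probe set 10567010) was the member of the Dickkopf family that rose. Dkk3 is a diverged member of that family and is not known to block the LRP co-receptors as Dkk1 does. Its levels were 9.60, 9.38 and 9.51 in the mutants, against 7.45, 8.23 and 7.93 in the controls. All mutant arrays lay above all controls, and control replicate 1 was here the lowest array. Mutants averaged 9.50 ± 0.11 and controls 7.87 ± 0.40 (SD, n = 3 each), a difference of 1.62 (SE 0.19, 95% interval 1.18 to 2.07, limma adjusted p = 0.00218).

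Dkk1 (probe set 10467006), which blocks LRP5 and LRP6 together with Kremen receptors, had levels of 6.66, 6.80 and 6.64 in the mutants, against 6.47, 6.81 and 6.84 in the controls. Each array was just above its background limit, and the groups overlapped. The difference was -0.01 (95% interval -0.29 to 0.27, limma adjusted p = 0.968). Dkk2 (probe set 10496125), a related LRP-binding protein, had levels of 6.06, 6.34 and 6.25 in the mutants and 5.96, 6.07 and 6.22 in the controls. Sost (probe set 10391508), which encodes the osteocyte product sclerostin, had levels of 6.15, 6.36 and 6.17 in the mutants and 6.02, 6.20 and 6.10 in the controls. Dkk2 and Sost were not above background on any array and their groups overlapped, so no fold is given (limma adjusted p = 0.494 for Dkk2 and 0.475 for Sost).

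**Figure D2:**
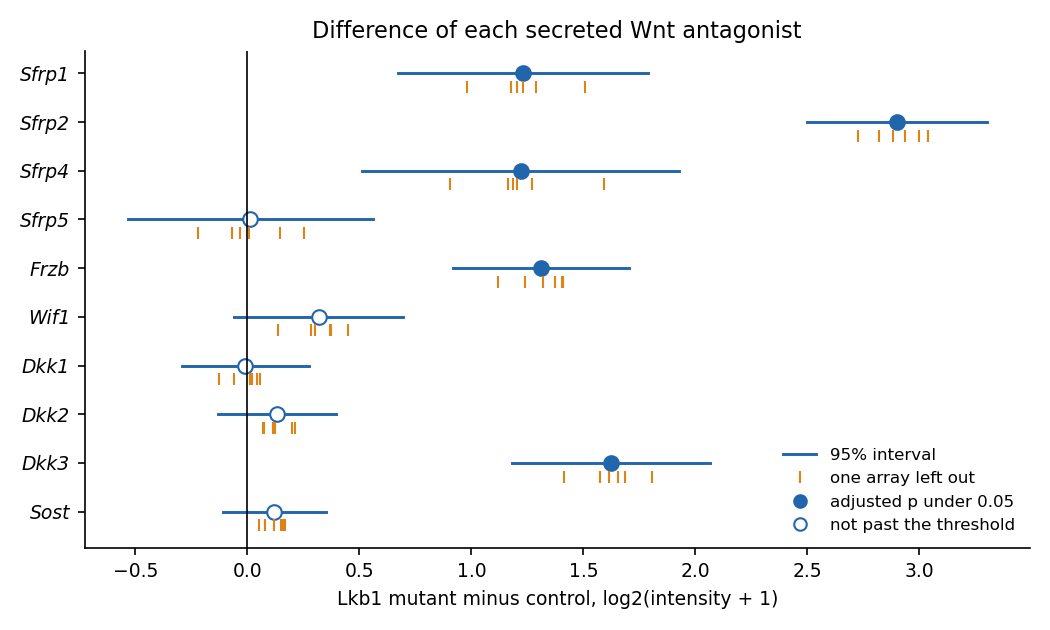
Difference of each gene, Lkb1 mutant minus control, in log2(intensity + 1), with its 95% interval from limma (blue line, n = 3 per group) and the difference after leaving out each array in turn (orange ticks); filled circles passed an adjusted p of 0.05. The intervals of Sfrp2, Dkk3, Frzb, Sfrp1 and Sfrp4 lay above 0, and those of the other 5 genes included 0.

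The control arrays varied more than the mutant arrays for 7 of the 10 genes and for 4 of the 5 that rose. SDs ran from 0.09 to 0.32 among mutants and from 0.09 to 0.69 among controls. Over all probe sets, too, control arrays were less alike (r = 0.960 to 0.972 between pairs) than mutant arrays (r = 0.979 to 0.984). The cartilage label held in both groups. The mean level of 10 cartilage genes, among them Col2a1 and Acan, was 11.67 to 11.79 in mutants and 11.74 to 11.85 in controls, and 0 of the 10 passed the test (median difference -0.06).

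Markers of several other cell types differed between the groups. Of all genes tested, 7.84% were higher and 6.82% lower in the mutants. Marrow markers were 17 genes of erythroid cells, neutrophils and B lymphocytes, whose mean level was 5.82, 5.88 and 5.61 in the mutants, against 8.60, 9.37 and 10.15 in the controls, and 4 of 5, 7 of 7 and 5 of 5 genes of these lists were lower in the mutants. This mean lay below the background limit in every mutant array and differed among the controls, with control replicate 1 lowest and control replicate 3 highest. In that order of the controls the levels of Sfrp1, Sfrp2, Sfrp4 and Sfrp5 ran from high to low. Sfrp2 was above background only in control replicate 1, so its order is partly one within background. Frzb was lowest in control replicate 3, whereas Dkk3 was lowest in control replicate 1. Set against control replicate 1 alone, the array with the least marrow signal, the difference was 2.70 for Sfrp2, 2.05 for Dkk3, 1.13 for Frzb, 0.68 for Sfrp1 and 0.48 for Sfrp4. These values, chosen after seeing the data, rest on 1 control and have no test. For Sfrp1 and Sfrp4 they are less than the full difference by over 1.5 times, and for Sfrp5 and Wif1 they were -0.47 and 0.68. In bulk samples, fewer cells of a type and less RNA per cell cannot be told apart.

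All 6 periosteum and perichondrium genes rose, Postn and Aspn among them, with a list mean of 9.99 to 10.20 in mutants and 7.42 to 8.25 in controls (median difference 2.14). Of 8 genes of fibrous tissue and tendon, 5 rose (9.60 to 9.62 in mutants, 8.47 to 8.89 in controls, median difference 0.71). Among 5 tested genes of osteoblasts and osteocytes, Col1a1 rose and Phex fell. The list means, taken over the 6 genes measured, were 8.49 to 8.62 in mutants and 8.11 to 8.45 in controls. The list of the articular surface had 2 of 6 genes higher (9.999 to 10.19 in mutants, 9.48 to 10.11 in controls). That of prehypertrophic and hypertrophic chondrocytes had 4 of 6 lower (9.26 to 9.40 in mutants, 9.82 to 10.11 in controls). Endothelial genes were higher for 5 of 6 (7.31 to 7.63 in mutants, 6.50 to 6.70 in controls), macrophage genes for 6 of 6 (8.08 to 8.65 in mutants, 7.27 to 7.57 in controls), muscle genes for 2 of 5 (7.15 to 7.44 in mutants, 6.87 to 6.98 in controls) and adipocyte genes for 2 of 5 (6.86 to 7.13 in mutants, 6.42 to 6.81 in controls). The counts of these short lists stand beside 7.84% of all genes tested that were higher and 6.82% that were lower. No marker gene was listed at 0 on any array, and the lowest intensity of one was 13.35. The part of these cell types in the levels of the Wnt antagonists was not tested.

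**Figure D3:**
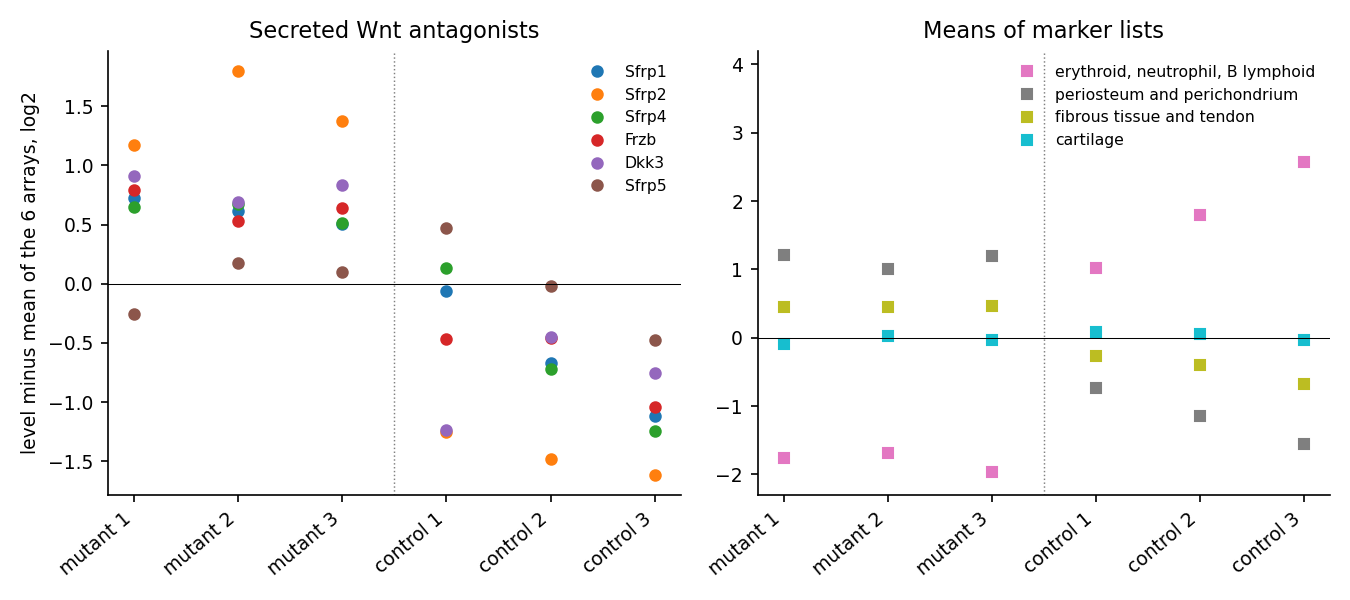
Left, levels of Sfrp1, Sfrp2, Sfrp4, Frzb, Dkk3 and Sfrp5 on each array minus the gene's mean over the 6 arrays (log2); right, the means of 4 marker lists treated in the same way, with mutant arrays left of the dotted line and control arrays right of it. Marrow markers were lowest in the 3 mutants and highest in control replicate 3, where Sfrp1, Sfrp2, Sfrp4, Sfrp5 and Frzb had their lowest levels. The Sfrp2 level there was below background. Cartilage markers stayed near 0 throughout.

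The levels of the genes through which these antagonists act were read from the same fit in 7 lists with 77 genes, of which 76 were measured and 74 tested. Of these 74, 23 rose and 3 fell, with a median difference of 0.12. Of all 17020 genes tested, 7.84% rose and 6.82% fell, with a median difference of 0.03. The Frizzled receptors, which receive the Wnt ligands that Sfrp proteins bind, had the most calls, with 8 of 10 higher, 0 lower and a median difference of 0.72. Fzd9 had levels of 9.71, 9.63 and 9.72 in the mutants, against 8.51, 8.51 and 8.34 in the controls (difference 1.24, SE 0.09, limma adjusted p = 0.00047). Fzd1 rose by 1.23 (SE 0.16), Fzd4 by 1.01 (SE 0.16) and Fzd2 by 0.96 (SE 0.10). For all 10 receptors the mutant and control arrays did not overlap, including Fzd5 and Fzd10, which did not pass the test. The same held for 36.7% of all genes tested. Fzd3 was at background in all 3 controls and rose at least 1.07-fold (limma adjusted p = 0.00473). Its mutant mean of 6.64 was also close to the background limits of the mutant arrays, 6.49, 6.73 and 6.52. Fzd2 exceeded background in 1 of 3 controls and Fzd4 in 2 of 3.

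The list of co-receptors holds the targets of Dkk1 and sclerostin (Lrp4, Lrp5, Lrp6, Kremen1 and Kremen2) and also Ror1, Ror2 and Ryk, which bind Wnts. Of its 8 genes, 5 were higher and 0 lower, with a median difference of 0.51, and the 5 were Lrp4, Lrp5, Lrp6, Kremen1 and Ror2. The shares over all genes tested were 7.84% higher and 6.82% lower. Lrp5, one of the pair of co-receptors that Dkk1 binds, had levels of 8.91, 8.88 and 8.96 in the mutants, against 7.94, 7.99 and 7.78 in the controls (difference 1.01, SE 0.09, limma adjusted p = 0.000886). Lrp6, the other of that pair, had levels of 9.81, 9.73 and 9.95 in the mutants, against 9.04, 8.97 and 8.81 in the controls (difference 0.89, SE 0.10, limma adjusted p = 0.00211). Both genes were higher on every mutant array than on any control array. Kremen1, the Dkk receptor, rose by 0.97 (SE 0.20) and Lrp4, a receptor of sclerostin, by 0.52 (SE 0.12). The Kremen1 call ended without mutant replicate 1 or 3 (limma adjusted p = 0.0708 and 0.0755). The Lrp4 call ended without mutant replicate 1 or 3 or control replicate 2 (limma adjusted p = 0.0917, 0.106 and 0.101).

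Of 18 Wnt ligands tested, 3 rose and 1 fell, with a median difference of 0.01. This stands beside 7.84% of all genes tested that rose and 6.82% that fell. Wnt5b, a ligand of chondrocytes that acts mainly without beta-catenin, had levels of 6.68, 6.83 and 6.79 in the mutants, against 7.44, 7.38 and 7.42 in the controls. It fell by 0.64 (SE 0.09, limma adjusted p = 0.00363), and no array of one group reached the other. Wnt16 rose by 0.57 (limma adjusted p = 0.0104) and Wnt9a by 0.49 (limma adjusted p = 0.0184), each with only 1 of 3 controls above background. Both calls ended when single arrays were left out. For Wnt16 this was mutant replicate 3 (limma adjusted p = 0.0547), and for Wnt9a mutant replicates 2 and 3 and control replicate 2 (0.062, 0.0853 and 0.0703). Wnt5a passed at an adjusted p of 0.0485 in limma with every array below background, so no fold is given, and its call was lost in 12 of 13 other settings.

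R-spondins strengthen Wnt signalling by binding Lgr receptors. In their list 1 of 7 genes fell, 0 rose and the median difference was 0.07. That share of calls was near the 14.7% of all genes tested. Rspo4, the R-spondin that fell, had levels of 5.34, 5.97 and 5.79 in the mutants, against 8.18, 7.78 and 8.17 in the controls. It was below background in all mutants and above it in all controls, which gives a level at least 2.76-fold lower in the mutants (limma adjusted p = 0.00052).

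Inside the cell, 1 of 14 signal transducers rose and 1 fell, with a median difference of 0.07. Calls were thus about as frequent as among all genes tested, at 14.7%. Tcf7l1, a TCF factor that often represses targets, rose by 0.59 (limma adjusted p = 0.0341), a call that was lost in 6 of 14 other settings. Gsk3b, a kinase of the complex that marks beta-catenin for destruction, fell by 0.55 (limma adjusted p = 0.00917), and the call ended without mutant replicate 3 (limma adjusted p = 0.0538). The settings that end the Tcf7l1 call include median centring (limma adjusted p = 0.0526), leaving out mutant replicates 1, 2 and 3 (0.118, 0.113 and 0.085) and leaving out control replicates 2 and 3 (0.109 and 0.0552).

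Genes that Wnt signalling is known to raise, or that feed back on it, had 5 of 10 higher and 0 lower, with a median difference of 0.40. Among all genes tested, 7.84% were higher and 6.82% lower. Tnfrsf19, a receptor of the TNF family, rose by 1.02 (SE 0.10) and Apcdd1, a membrane-bound Wnt inhibitor, by 0.94 (SE 0.15). Lef1, a TCF/LEF factor that is itself a target, had levels of 8.94, 8.96 and 8.91 in the mutants, against 8.39, 8.17 and 8.24 in the controls. Its groups did not overlap, and the difference was 0.67 (SE 0.09, limma adjusted p = 0.00426). Nkd1, an intracellular feedback inhibitor, rose by 0.64 (SE 0.14), a call that ended without mutant replicate 1, 2 or 3 (limma adjusted p = 0.055, 0.0859 and 0.0802). Axin2, a widely used target gene, was chosen here after its values were seen and had a difference of -0.07 (SE 0.10, limma adjusted p = 0.698). Its means of 6.74 in mutants and 6.80 in controls lay close to the background limits of 6.40 to 6.73. A change of Axin2 could therefore be hidden by background.

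Among 7 other secreted antagonists, 1 rose and 0 fell, with a median difference of 0.11. This too was near the 14.7% called among all genes tested. Igfbp4, an IGF-binding protein that can also inhibit Wnt signalling, had levels of 10.02, 9.89 and 9.93 in the mutants, against 8.20, 8.40 and 8.15 in the controls. Its mutant arrays lay far above its control arrays, and the difference was 1.70 (SE 0.10, limma adjusted p = 0.000258). Over the 7 lists together, the 26 calls became 17, 17 and 13 without mutant replicates 1, 2 and 3 and 17 without control replicate 2.

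**Figure D4:**
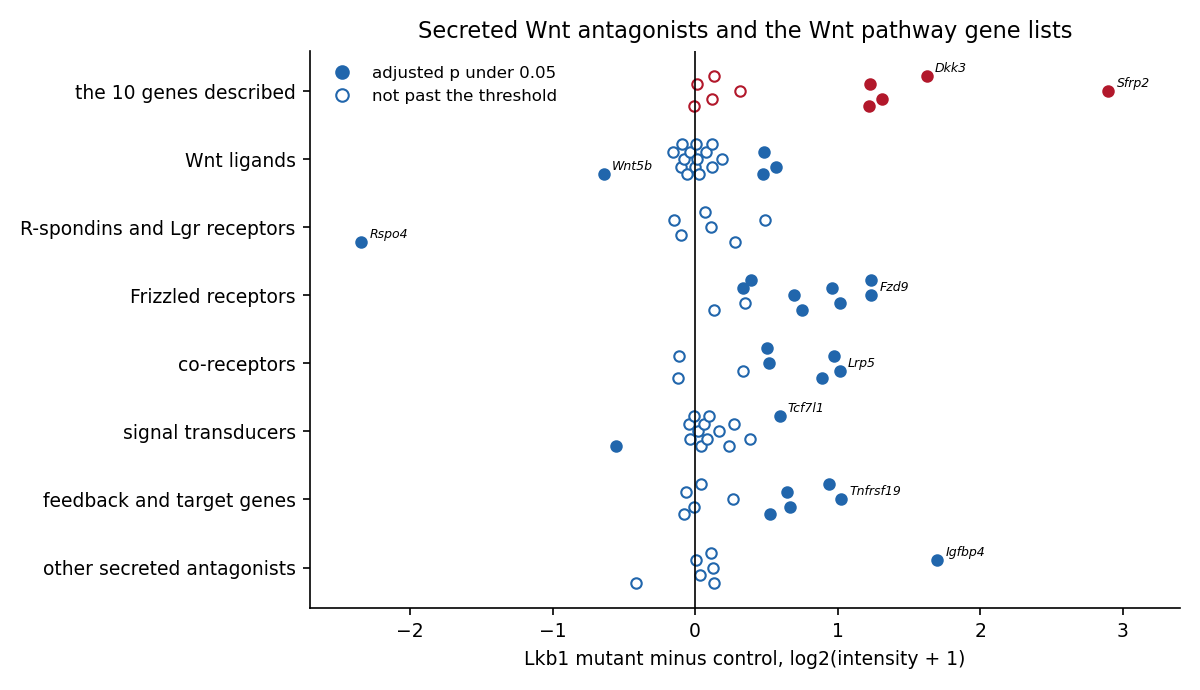
Difference of each gene tested, Lkb1 mutant minus control, in log2(intensity + 1), with the 10 secreted antagonists in red in the top row and the 7 Wnt pathway lists in blue below; filled circles passed an adjusted p of 0.05 in limma, and names mark differences over 1.5 in size and the gene with the largest difference of each row. Frizzled receptors lay right of 0 throughout with 8 of 10 called, and Rspo4 and Wnt5b lay to the left.

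The 4 tested genes whose pattern over the 6 arrays lay nearest to that of Sfrp2 were Col8a1, Prss35, Thbs2 and Ptn. The measure of likeness was the root mean square distance between levels centred on each gene's own mean. It was 0.29 for Col8a1, 0.30 for Prss35, 0.32 for Thbs2 and 0.34 for Ptn, in log2 units over 6 arrays. That distance includes the difference between mutants and controls. Rises close to that of Sfrp2, and their adjusted p, therefore follow from how these genes were chosen. The differences of Col8a1, Prss35 and Thbs2 were 2.96, 2.77 and 2.76. Ptn was below background in all 3 controls, which gives a level at least 6.14-fold higher in the mutants (limma adjusted p = 0.000193).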

How the data were processed

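RNA from 3 Lkb1 mutant and 3 control samples was measured on single-colour Affymetrix arrays after labelling from 300 ng of total RNA, per the labels' protocols. The deposited values are linear intensities per probe set, which the authors made; how they summarised and normalised the probes, and any genome build, is not stated in the sources used here. All value columns matched a sample, and 0 were left out. Groups and replicate numbers came from the sample titles.

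The platform annotation paired 21789 probe sets with a single gene and 1621 with several, and left 12102 out. Symbols were updated by gene number to RefSeq (GRCm38.p6) for 21698, and 91 kept their own. Per gene the probe set with the highest mean over 6 arrays was kept, each of the 10 genes having 1. Genes whose mean lay above the 25% point of all probe sets (intensity 46.2) were tested with limma 3.58.1 (lmFit and eBayes, R 4.3.3) on log2(intensity + 1), as a two-sided test called at 0.05 after adjusting p over all 17020 genes (Benjamini-Hochberg). The fit was tested on simulated data. Background was the 95% point of 1035 olfactory receptor probe sets per array. A lower bound on a fold sets the bright group's mean against the higher of background and the dim probe's own level on each array.

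The 10 genes, the pathway lists and the marker lists were chosen with earlier results of these data known. The text names the 10 genes, Stk11, up to 4 called genes with the largest differences of each pathway list, and the 4 genes nearest to the called gene with the largest rise. Names outside this rule, given after their values were seen, are Axin2, Fzd3, Fzd5, Fzd10, Kremen2, Ror1, Ror2, Ryk and the marker genes. The alternatives tried were a pseudocount of 16, quantile or median scaling of the arrays, testing without a filter or with one at the median, averaging the probe sets per gene, eBayes with an intensity trend and robust fitting, a replicate block, and each array left out in turn. Single genes were not tested by permutation, since 0.1 is the smallest p that 3 against 3 arrays allow.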

Additional observations from a re-analysis of the deposited data

How the results depend on the processing

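The number of the 10 genes that passed was 5 under each of 8 other normalisations, filters and models, and 3 to 5 when 1 array was left out. The number of all genes that passed was 2496, with 935 to 3265 when 1 array was left out (1193, 1188 and 935 without mutant replicates 1, 2 and 3, 1329 without control replicate 2). For the pathway genes the alternatives were chosen after seeing the data, and 26 calls became 13 to 27 when 1 array was left out. Fewer arrays in the fit is part of each of these settings, and beyond this the cause was not tested. Without mutant replicate 1, 2 or 3 or control replicate 2, Sfrp1 and Sfrp4 were lost from the calls. Of 138 values of the 10 genes under alternatives, 123 kept their direction and side of the threshold, 8 lost the call (Sfrp1 and Sfrp4) and 7 changed sign. The 7 were all of Sfrp5 and Dkk1, which never passed, and leaving out 1 array moved Sfrp5 between -0.22 and 0.25 and Dkk1 between -0.13 and 0.057. Frzb stayed between 1.12 and 1.41, Dkk3 between 1.41 and 1.81 and Sfrp2 between 2.69 and 3.04, all called. With a replicate block, 5 of the 10 genes, 2031 of all genes and 23 pathway genes passed. Deviations of mutant and control samples that share a number correlated at r = 0.08, 0.21 and -0.08 across genes. Samples with different numbers were not compared in this way, so these values cannot decide whether the numbers pair the samples. Of the pathway genes named, Wnt5a, Tcf7l1, Wnt9a, Lrp4, Nkd1, Kremen1, Wnt16 and Gsk3b also lost their calls under 1 or more alternatives. Values near background, those of Dkk1, Dkk2, Sost and the Sfrp2 controls, are limited by signal over background.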

Other observations

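The 5 genes that rose differed in how alike their patterns were over the 6 arrays, measured as the root mean square distance between centred log2 levels. Sfrp1 and Sfrp4 were nearest, at 0.10, and of 17019 other genes Sfrp1 was the 2nd nearest to Sfrp4 and Sfrp4 the 4th nearest to Sfrp1. The distance was 0.20 from Sfrp1 to Frzb and 0.53 from Sfrp1 to Dkk3. Sfrp2 lay 0.75 to 0.91 from the other 4 genes. These distances contain the difference between mutants and controls and the order of the 3 controls, and they describe these arrays without a test.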
